A study of Mus musculus with 6 samples.

Results

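The genes described here encode the proteins of the presynaptic terminal that store transmitter in vesicles and release it, together with the granins of peptide-containing vesicles. They were listed by gene symbol, and the list held 39 genes, of which 38 had a probeset annotated to that gene alone. All 38 passed the filter on low signal, and they stand among 16663 genes tested. The remaining member, Vamp2, had only a probeset that it shares with Ubr3 in the annotation, so that it was not tested as a member. Hypothalamic gene expression was measured on 6 Affymetrix Mouse Gene 1.0 ST arrays of female C57Bl/6J offspring aged 21 weeks. The CON group, with 3 arrays, is labelled control, and in the CGP group, also with 3 arrays, the mothers had received the NMDA receptor antagonist CGP 39551 by mouth at 5 mg/kg body weight through pregnancy and until weaning had been completed. RNA from 18 mice was pooled in each group, and no label tells if each array had a pool of its own. A p-value here thus rests on the scatter of arrays around their group means, which may be technical, and not on differences among mice. For each gene limma moderates this scatter toward that of all tested probesets, so that a standard error is not the gene's own scatter alone. All values are log2 RMA signals as deposited, and a difference is CGP minus CON on that scale. Of 8 genes that mark the hypothalamus, among them the genes of orexin, melanin-concentrating hormone, vasopressin and oxytocin, 7 were measured, and their means over the 6 arrays lay between 8.22 and 12.52, above the filter of 6. These levels are given because the submitters' treatment notes speak of adrenal glands while their other labels name the hypothalamus. Passing the filter does not by itself tell the tissues apart, since only 451 of the 18690 probesets with 1 gene lay under it. No list of adrenal genes was compared. On the first principal component of all tested probesets, CGP replicate 1 lay among the CON arrays, at -0.90 against -8.75 to -0.74 for CON and 6.40 and 8.05 for the other CGP arrays. Without it no member rose or fell either, and the largest differences were -0.27 for Syt2 and -0.23 for Unc13c.

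A vesicle is docked at the active zone by scaffold proteins and Rab3 GTPases, and Munc13 proteins prime it for fusion. The SNARE proteins SNAP-25, syntaxin and synaptobrevin then form a bundle that pulls the vesicle onto the plasma membrane, complexin clamps the bundle, and a synaptotagmin that binds calcium triggers its closure. After fusion, NSF and the SNAP adaptor proteins take the bundle apart so that its parts can be used again. In the hypothalamus the same machinery also serves the release of peptides from dense-core vesicles, whose cores are built by the granins.

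Expression of the release machinery genes differed little between the groups. None of the 38 genes rose and none fell at an adjusted p under 0.05 in limma, where 0.154% of the 18239 tested probesets rose and 0.126% fell. At an unadjusted p under 0.05, 1 gene (2.63%) was higher in CGP against 5.25% of all probesets, and 5 genes (13.2%) were lower against 5.83%. The arrays of the groups did not overlap for 11 genes. All CGP arrays lay above all CON arrays for 3 genes (7.89%, against 7.59% of all probesets) and below them for 8 genes (21.1%, against 9.95%). The synaptotagmin gene Syt2 had the lowest adjusted p (0.0651) and the next was that of the priming factor gene Unc13c (0.194). Differences ran from -0.28 for Syt2 to 0.083 for Unc13a, and 35 of the 38 were smaller than 0.1 in size. The median difference was -0.0062, beside -0.0031 over all tested probesets, and it was 0.0061 with each array centred on its median, so that its sign is not determined.

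The precision of the arrays sets how firmly a lack of change can be stated for the pooled RNA, not for mice. Standard deviations within a group had a median of 0.028 and reached 0.12 for Cplx2 in CGP. For 36 of the 38 genes the 95% interval of the difference, taken gene by gene, lay inside a change of 1.2-fold either way, which is 0.26 on the log2 scale. The exceptions were Syt2 and Unc13c. Like the p-values, these intervals rest on the moderated scatter of arrays and leave out differences among mice. Napa, for example, had SDs of 0.0084 in CON and 0.012 in CGP and a standard error of 0.033 in limma. In a whole tissue block, fewer cells of a type and less RNA per cell cannot be told apart.

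**Figure D1:**
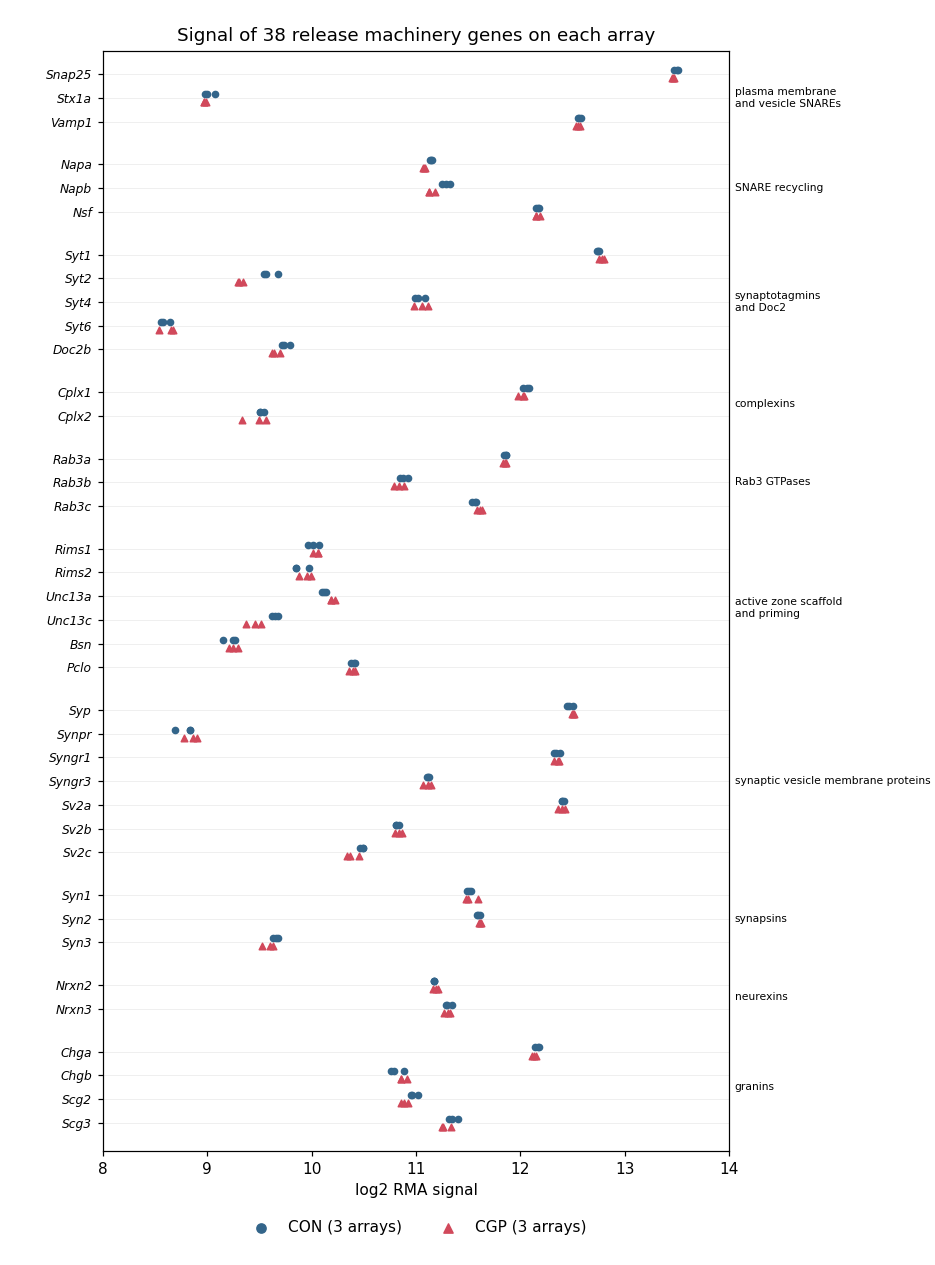
Log2 RMA signal (horizontal axis) of the 38 genes with a probeset of their own, 1 gene a line and grouped by role, with 3 CON arrays as circles and 3 CGP arrays as triangles. Signals of different genes come from different probes and are not to be set against each other; within a gene the groups mostly cover the same range, and they part for 11 genes, among them Syt2, Unc13c and Napb.

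**Figure D2:**
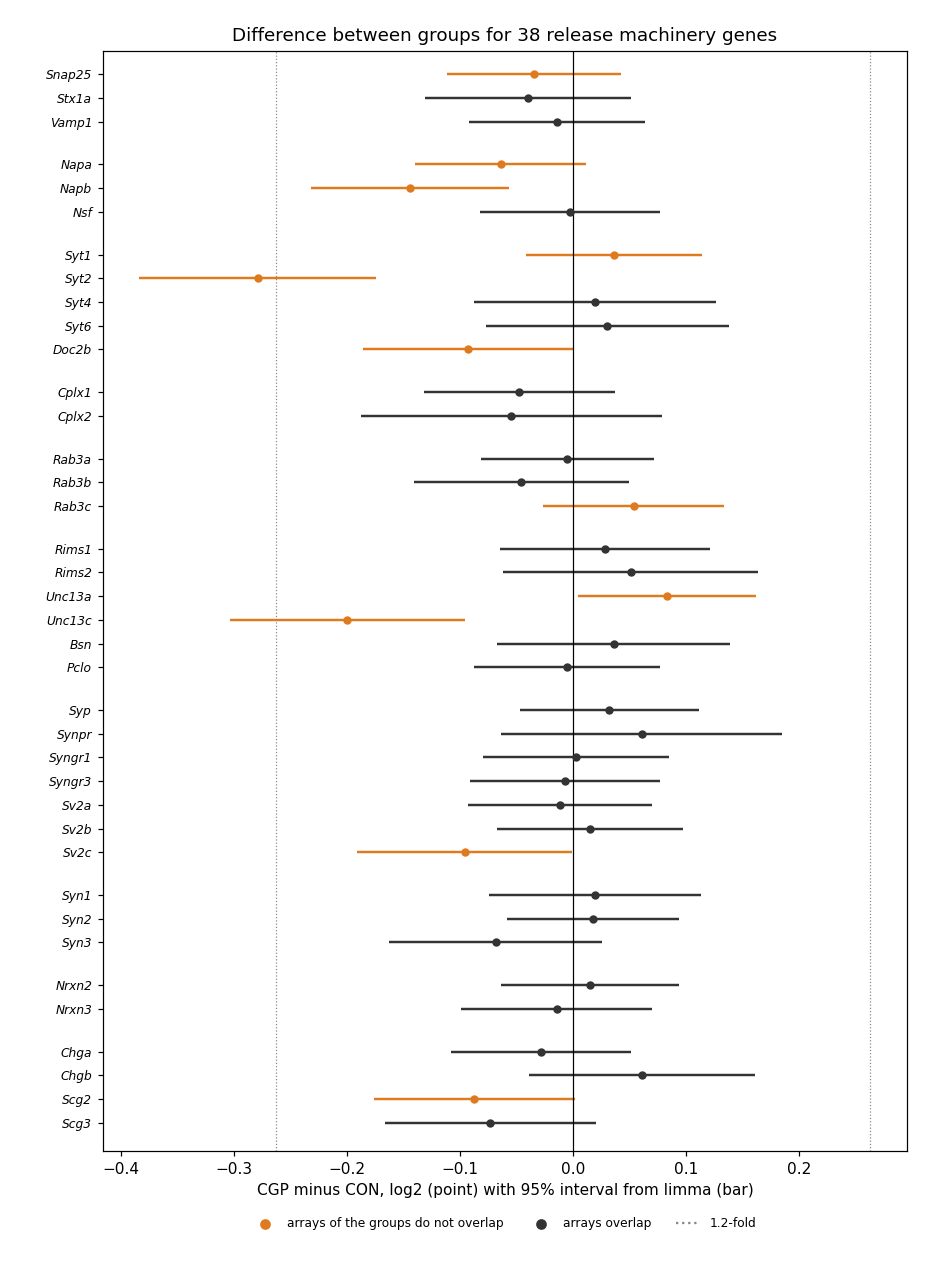
Difference between CGP and CON on the log2 scale (horizontal axis) for the same 38 genes, with points for the limma estimate, bars for its 95% interval and dotted lines at 1.2-fold. Genes whose arrays do not overlap between the groups are in orange; the intervals of 36 genes lie between the dotted lines, and those of Syt2 and Unc13c reach past the lower one.

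The SNARE genes were measured by 3 members, and none passed the test. Snap25, which encodes the plasma membrane SNARE attached to the membrane by palmitate, had signals of 13.47, 13.51 and 13.50 on the CON arrays and 13.45, 13.47 and 13.46 on the CGP arrays. The lowest CON array lay just above the highest CGP array, and the difference of -0.035 (standard error 0.033) had an adjusted p of 0.740 in limma. Stx1a, which encodes the syntaxin that anchors the bundle in the plasma membrane, had a mean of 9.02 for CON and 8.98 for CGP, with SDs of 0.055 and 0.0096 (n = 3 arrays in each group). The means of Vamp1, a synaptobrevin gene, were 12.56 ± 0.014 and 12.55 ± 0.020. The probeset shared by Vamp2, the main synaptobrevin gene of the forebrain, and Ubr3 gave 13.22, 13.23 and 13.24 in CON and 13.28, 13.32 and 13.26 in CGP. All CGP arrays of this shared probeset lay above all CON arrays, by a mean of 0.059 (adjusted p = 0.641 over all probesets in limma), and the signal cannot be assigned to Vamp2 alone.

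Both member genes of the SNAP adaptors, which bring NSF to the spent SNARE bundle, had lower signals on every CGP array than on any CON array, and neither passed the test. The third adaptor gene, Napg, which is not a member, differed by -0.00089 (adjusted p = 0.996 in limma) with overlapping groups. Napb, which encodes the brain-enriched β-SNAP, had signals of 11.32, 11.25 and 11.29 in CON and 11.18, 11.13 and 11.12 in CGP. The highest CGP array lay below the lowest CON array, and the difference was -0.14 (standard error 0.038, 95% interval -0.23 to -0.057, adjusted p = 0.264 in limma), a signal 1.11-fold lower in CGP. Napa, which encodes α-SNAP, had signals of 11.15, 11.13 and 11.14 in CON and 11.06, 11.09 and 11.08 in CGP, which differ by -0.064 (standard error 0.033, adjusted p = 0.520). Nsf itself, the ATPase that takes the bundle apart, had the same mean of 12.16 in both groups (SD 0.016 for CON and 0.026 for CGP, n = 3 arrays), and its difference was -0.0029.

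Syt2 showed the largest difference of the whole group. It encodes a fast calcium sensor close to Syt1, known mainly from hindbrain, spinal cord and some inhibitory neurons. Its signals were 9.68, 9.56 and 9.55 on the CON arrays and 9.31, 9.30 and 9.35 on the CGP arrays. All CGP arrays lay below all CON arrays, and the difference of -0.28 (standard error 0.045, 95% interval -0.38 to -0.17) is a signal 1.21-fold lower in CGP. It did not pass the test, with an adjusted p of 0.0651 in limma and a range of 0.00154 to 0.248 over 14 alternative settings. In 1 of these, eBayes with a trended prior and robust estimation, 3 of the 38 genes fell (7.89%), Syt2 (adjusted p = 0.00154), Napb (0.0182) and Unc13c (0.0195), against 0.746% of all probesets that fell and 0.620% that rose in that fit. None of the members rose in it, and the other 13 settings called none of them.

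Syt1, the main calcium sensor of fast release in the forebrain, lay the other way. Its signals were 12.74, 12.74 and 12.75 in CON and 12.78, 12.80 and 12.76 in CGP, so that the groups did not overlap, but the difference was only 0.036 (standard error 0.034, adjusted p = 0.730 in limma). Syt4, which encodes a synaptotagmin of dense-core vesicles, had a CON mean of 11.03 ± 0.049 and a CGP mean of 11.05 ± 0.066, and those of Syt6 were 8.59 ± 0.043 and 8.62 ± 0.070 (SD over 3 arrays). Doc2b encodes a soluble protein with high calcium affinity that acts in spontaneous release. Its signals were 9.80, 9.73 and 9.71 in CON and 9.70, 9.64 and 9.62 in CGP, so that the groups just did not overlap, and they differed by -0.093 (standard error 0.040, adjusted p = 0.449).

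Among the genes of vesicle priming, Unc13c and Unc13a differed in opposite directions. They encode Munc13-3, best known from cerebellar granule cells, and Munc13-1, the main priming factor of glutamatergic synapses. Unc13c had signals of 9.67, 9.65 and 9.62 in CON and 9.51, 9.37 and 9.46 in CGP. The groups did not overlap, and the difference was -0.20 (standard error 0.045, 95% interval -0.30 to -0.096, adjusted p = 0.194 in limma), or 1.15-fold lower in CGP. Unc13a had signals of 10.12, 10.09 and 10.14 in CON and 10.22, 10.19 and 10.19 in CGP, again without overlap, with a difference of 0.083 (standard error 0.034, 95% interval 0.0038 to 0.16, adjusted p = 0.434). These were the only genes of the group with several probesets of their own, which allowed each direction to be read more than once on the same RNA. For Unc13c all 7 probesets were lower in CGP, by -0.071 to -0.34, and for 6 of them the arrays of the groups lay apart. For Unc13a all 3 probesets were higher, by 0.064 to 0.12, and all were apart. The adjusted p of these probesets ran from 0.183 to 0.643 for Unc13c and from 0.308 to 0.546 for Unc13a, so that none passed. Unc13b, a related gene that is not a member, changed by -0.0090. The difference between Unc13c and Unc13a in their response was not tested.

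**Figure D3:**
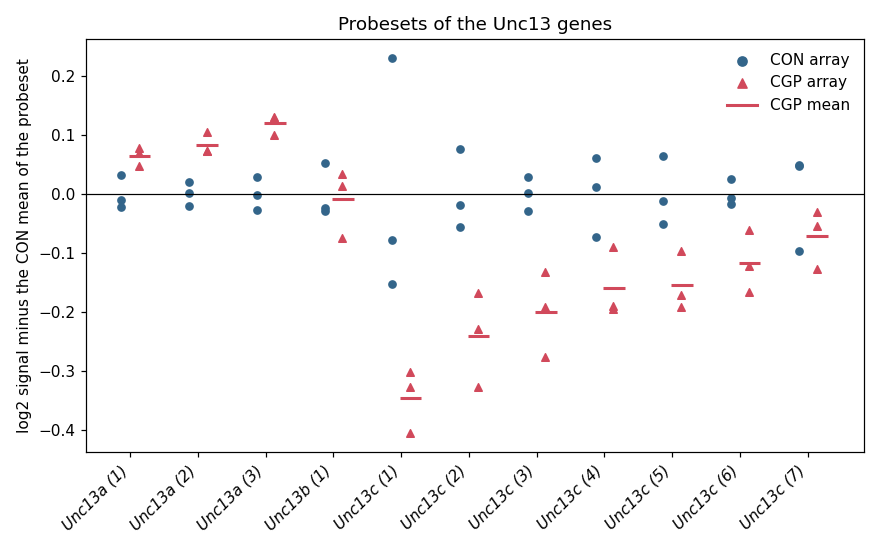
Log2 signal minus the CON mean of the same probeset (vertical axis) for 3 probesets of Unc13a, 1 of Unc13b and 7 of Unc13c, with CON arrays as circles, CGP arrays as triangles and short bars at the CGP mean. The CGP means of Unc13a lie 0.064 to 0.12 above CON and those of Unc13c 0.071 to 0.34 below it, with the widest spread of the CON arrays in the Unc13c probeset with the largest difference, -0.34.

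The scaffold of the active zone showed smaller differences. Rims2, which encodes a Rab3-binding organiser of docking and calcium channels, had signals of 9.98, 9.85 and 9.85 in CON and 9.99, 9.96 and 9.88 in CGP. The groups overlapped, with a difference of 0.051 (standard error 0.049, adjusted p = 0.740 in limma). Its relative Rims1 had a CON mean of 10.02 ± 0.053 and a CGP mean of 10.05 ± 0.026 (SD over 3 arrays). The giant scaffold proteins Bassoon and Piccolo are encoded by Bsn, at 9.22 ± 0.062 and 9.25 ± 0.043, and Pclo, at 10.40 ± 0.021 and 10.39 ± 0.030.

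The complexins bind the SNARE bundle and hold fusion until calcium enters. Both member genes had a lower mean in CGP, with overlapping groups, and so had Cplx3, which is not a member (-0.029, adjusted p = 0.913 in limma). Cplx1 changed from 12.06 ± 0.027 to 12.01 ± 0.032 and Cplx2 from 9.52 ± 0.022 to 9.46 ± 0.12 (SD, n = 3 arrays each), with adjusted p values of 0.665 and 0.764 in limma. The wide spread of Cplx2 came from CGP replicate 2, at 9.34, without which its difference was 0.0086 rather than -0.055.

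Rab3 GTPases sit on the vesicle and bind the RIM scaffold. Rab3c had signals of 11.58, 11.56 and 11.54 in CON and 11.63, 11.59 and 11.61 in CGP. All CGP arrays lay above all CON arrays, by a mean of 0.054 (standard error 0.035, adjusted p = 0.610 in limma). Rab3a, the main form in brain, was at 11.85 in both groups (SD 0.011 in CON and 0.016 in CGP, n = 3 arrays each), and Rab3b changed from 10.88 ± 0.042 to 10.83 ± 0.048.

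Apart from Vamp1 and the synaptotagmins, the members that encode membrane proteins of the vesicle were those of the SV2, synaptophysin and synaptogyrin families. Among these, on probesets of 1 gene, Sv2c alone parted the groups. Sv2c encodes the SV2 form found in basal ganglia and in dopamine neurons, and had signals of 10.49, 10.46 and 10.49 in CON and 10.37, 10.45 and 10.34 in CGP. CGP replicate 2 lay just below the lowest CON array, and the difference was -0.096 (standard error 0.041, 95% interval -0.19 to -0.0014, adjusted p = 0.447 in limma). The widely expressed Sv2a had a CON mean of 12.40 ± 0.013 and a CGP mean of 12.39 ± 0.031, and Sv2b followed with 10.82 ± 0.014 and 10.83 ± 0.035 (SD over 3 arrays). Synpr, which encodes synaptoporin, had signals of 8.69, 8.84 and 8.84 in CON and 8.91, 8.86 and 8.78 in CGP, with overlapping groups and a difference of 0.061 (standard error 0.054, adjusted p = 0.716). Syp, the gene of synaptophysin and a common measure of synapse content, was at 12.47 ± 0.028 and 12.50 ± 0.0060, a difference of 0.032 with a 95% interval of -0.047 to 0.11. The synaptogyrin genes Syngr1 and Syngr3 differed by 0.0027 and -0.0069. Further probesets that Syngr1 shares with Rpl3 and other genes were lower on every CGP array than on any CON array. They differed by -0.073 and -0.074 (adjusted p = 0.549 and 0.542 over all probesets in limma), and their signal cannot be assigned to Syngr1.

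The synapsins tether vesicles to each other and to actin in the reserve pool. Syn1 and Syn2 differed by 0.019 and 0.017, and Syn3, the form best known from developing neurons, by -0.069 (standard error 0.041, adjusted p = 0.577 in limma). The neurexin genes, whose products bind neuroligins across the synaptic cleft, differed by 0.015 (Nrxn2) and -0.015 (Nrxn3), with adjusted p values of 0.907 and 0.914.

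The granins, which drive the formation of dense-core vesicles and are cut into peptides, did not move one way. Scg2, the gene of secretogranin II, had signals of 11.02, 10.96 and 10.95 in CON and 10.86, 10.89 and 10.92 in CGP. All CGP arrays lay below all CON arrays, with a difference of -0.087 (standard error 0.038, adjusted p = 0.456 in limma). Chgb, the gene of chromogranin B, had signals of 10.89, 10.79 and 10.76 in CON and 10.91, 10.86 and 10.86 in CGP, with overlapping groups and a difference of 0.061 (standard error 0.043, adjusted p = 0.643). Chga, the gene of chromogranin A, was at 12.16 ± 0.022 for CON and 12.13 ± 0.019 for CGP, and Scg3, whose product links granins to the vesicle membrane, at 11.35 ± 0.040 and 11.28 ± 0.045 (SD over 3 arrays). Granins are also abundant in the pituitary, and of 6 anterior pituitary hormone genes 5 were higher in CGP, of which Gh and Lhb passed the test, and 1, Tshb, was lower. Their summed signal, on the log2 scale, lay between 14.48 and 14.54 in CON and between 14.72 and 14.77 in CGP, and the part of this in the granin values was not tested.

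Promoter sequences are shown for Scg2, Chgb, Chga and Syn1 because they hold, or nearly hold, a cAMP response element, the 8 bases through which CREB is known to raise transcription in active neurons and endocrine cells. RefSeq promoters (build GRCm38.p6) were found for 31 of the 39 members, and the 250 bases before each start were searched for TGACGTCA, which reads the same on both strands. It was present for 3 members (9.68%), Scg2, Chgb and Syn1, against 1.77% of the 27025 genes in the table. The stretches of 60 bases below are written 5′ to 3′ on the strand of the gene, with the element, or for Chga a near match, in capitals. The near match of Chga has 1 difference from the element, C7A, counted from the first base of the element. This near match was looked up in Chga alone. Near matches were not counted for the other members or over all genes, so that other members may hold them too.
Scg2, chr1:79440061-79440120, minus strand: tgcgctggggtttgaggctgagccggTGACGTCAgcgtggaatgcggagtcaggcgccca
Chgb, chr2:132781544-132781603, plus strand: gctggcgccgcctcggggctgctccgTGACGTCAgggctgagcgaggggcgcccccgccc
Syn1, chrX:20921044-20921103, minus strand: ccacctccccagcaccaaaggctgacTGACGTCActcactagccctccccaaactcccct
Chga, chr12:102554871-102554930, plus strand: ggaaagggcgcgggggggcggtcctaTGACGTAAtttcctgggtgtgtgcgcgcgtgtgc
The element began 68 bases before the start of Scg2, 72 before Chgb and 159 before Syn1, and the near match began 44 before Chga. The 4 genes differed between CGP and CON by -0.087, 0.061, 0.019 and -0.029 on the log2 scale, with no common direction and none past the test. The 9 bases TTCAGCACC, the left part of the RE1 element bound by the repressor REST, were found on either strand for 1 member, Syn1 (3.23%), against 0.348% of all genes, and the GC box GGGCGG for 22 members (71.0%), against 35.4%. These matches describe the letters in the windows, and no binding was measured.

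None of the related genes that were not members passed the test in the main fit either, and the medians of their lists differed in sign. Of 46 other genes of the release machinery, 40 were tested and none passed, with a median difference of 0.0053. At an unadjusted p under 0.05 in limma, 4 were higher and 3 lower, where 5.25% and 5.83% of all probesets were. All CGP arrays lay above all CON arrays for 5 of the 40 and below them for 3, where 7.59% and 9.95% of all probesets did. Of the 38 members, 3 lay above and 8 below. The largest difference was that of Syt9, a further fast calcium sensor, which was 0.20 higher in CGP (standard error 0.038, adjusted p = 0.121 in limma, and 0.00648 with the trended and robust prior, which called this gene alone of the 40). The RIM gene Rims4 was 0.14 higher (standard error 0.051, adjusted p = 0.385). The largest difference the other way, named after its value was seen, was that of the scaffold gene Lin7a (-0.14, standard error 0.050, adjusted p = 0.378), whose CGP arrays all lay below the CON arrays. The 18 tested genes of vesicle recycling, which encode clathrin, its adaptors, dynamins and their partners, lay between -0.056 and 0.046 with a median of 0.0069, and none had an unadjusted p under 0.05. The 13 tested genes of dense-core vesicles, such as the peptide-processing enzyme gene Pcsk1 (-0.10, adjusted p = 0.585), had a median of -0.014 and none with an unadjusted p under 0.05. General neuron genes, 8 in number, had a median of -0.021, with 4 higher, 4 lower and none past the test. At an unadjusted p under 0.05 in limma, 2 were lower and none higher, where 5.83% and 5.25% of all probesets were. For 3 of the 8 all CGP arrays lay below all CON arrays, and for 1 above them, beside 9.95% and 7.59% of all probesets.

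Marker genes of the hypothalamus and of other regions and cell types were compared in the same fit. Of the 7 hypothalamus genes 2 were higher and 5 lower in CGP, with a median of -0.018 and none past the test. All CGP arrays lay below all CON arrays for 3 of them and above for 1, where 9.95% and 7.59% of all probesets did. The largest differences were -0.14 for Nkx2-1 and -0.11 for Sim1. All 4 midbrain dopamine neuron genes were lower in CGP, with a median of -0.30, and Slc6a3, the dopamine transporter gene, passed the test. Their summed signal, on the log2 scale, lay between 12.19 and 12.23 in CON and between 11.88 and 11.93 in CGP. All 5 thalamus genes were higher, with a median of 0.24, and 2 of them, Ptpn3 and Prkcd, passed. Their summed signal lay between 12.75 and 12.80 in CON and between 13.01 and 13.04 in CGP. Since Unc13c and Syt2 are known from the cerebellum and hindbrain, lists of both regions were added after these differences had been seen. The 7 measured cerebellum genes split into 3 with a positive and 4 with a negative difference (median -0.0026). Their summed signal was higher on all CGP arrays, at 10.75 to 10.77 in CON and 10.80 to 10.83 in CGP. Grm4, with the highest mean of these genes over the 6 arrays (9.49), weighs most in this sum. It was 0.15 higher without overlap (adjusted p = 0.172 in limma, and 0.0387 with the trended and robust prior). The sum without Grm4 was not taken. En2 was 0.14 lower with overlapping groups (adjusted p = 0.416 in limma). Of 6 measured hindbrain genes 4 passed the filter, with 2 higher and 2 lower and a summed signal of 9.30 to 9.41 in CON and 9.31 to 9.39 in CGP. Means of the 6 genes were low, from 5.96 to 7.78, so that this sum may hold much background. Glial and vascular lists (astrocytes, oligodendrocytes, microglia and endothelium, 5 genes each) had medians of -0.065, -0.057, -0.083 and -0.0087 with none past the test in the main fit. In this order, 4, 5, 4 and 5 genes were lower in CGP. For 2, 4, 3 and 1 of them all CGP arrays lay below all CON arrays, beside 9.95% of all probesets. With the trended and robust prior in limma, Mobp of the oligodendrocyte list passed (adjusted p = 0.0430). Of 5 choroid plexus genes 1 rose, Ttr, with a list median of 0.19, of 6 meninges genes 3 fell, with a list median of -0.38, and both genes measured for cortex and hippocampus did not pass. The part of these signals in the values of Syt2, Unc13c, Napb and Sv2c was not tested.

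**Figure D4:**
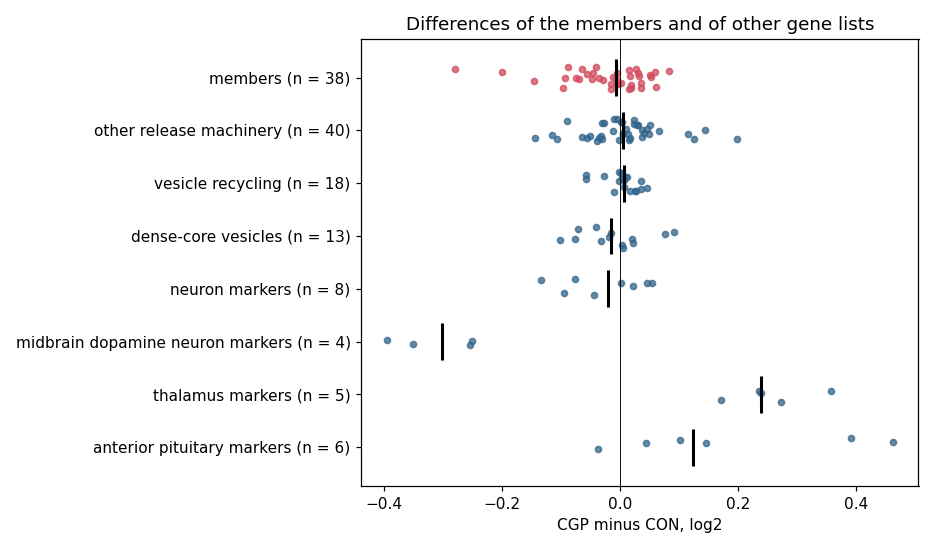
Difference between CGP and CON on the log2 scale (horizontal axis) for the 38 members and for other gene lists, with 1 point a gene, black bars at the median and the number of tested genes in brackets; vertical scatter within a list has no meaning. The members centre on -0.0062 with Syt2 and Unc13c at their lower end, and the midbrain dopamine neuron genes (-0.30), thalamus genes (0.24) and anterior pituitary genes (0.12) have medians farther from 0.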

How the data were processed

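The deposited table holds log2 signals of 28471 probesets on 6 arrays. The authors made these log2 values with RMA and Partek, per the submitters' processing notes. Their versions and the genome build were not given in the sources used here. RMA normalizes between arrays, so that a shift common to all genes would not show. Probesets were named from the platform annotation. Those with 1 gene and a mean of at least 6 were tested (18239), each gene of the text being represented by its probeset with the highest mean. Both groups of 3 arrays entered 1 fit without covariate (lmFit and eBayes of limma 3.58.1, R 4.3.3). Benjamini-Hochberg adjustment covered all tested probesets, and a gene rose or fell at an adjusted p under 0.05. The fit was tested on simulated data. Values of every array are given for the 5 largest differences each way and for genes whose groups did not overlap. The members and lists were chosen with earlier results of these data known, and the cerebellum and hindbrain lists and the promoter motifs after the values here were seen. Alternatives changed the filter, annotation, centring, array weights, variance prior and replicate block, or left out 1 array. Array medians lay between 8.19 and 8.21, and arrays correlated at 0.996 or above. The number of arrays limits the precision.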

Additional observations from a re-analysis of the deposited data

How the results depend on the processing

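No member rose or fell in 13 of the 14 settings that refitted the model, and none did with a threshold of 1.4-fold added. A trended and robust prior called 3 lower. The calls over all probesets, 28 higher and 23 lower, depended more on the setting. They were 3 and 6 at 1.4-fold, 2 and 2 with all probesets tested, 113 and 136 with the trended and robust prior, 4 and 2 without variance moderation, and 2 to 5 and 3 to 8 with 1 array left out, each such array included. Array weights gave 38 lower, and centring gave 37 higher and 18 lower. Same-numbered arrays deviated together at correlations of 0.078, -0.18 and 0.11, which show no pairing by number. With 3 arrays in each group these values cannot exclude one. With the replicate block 2 probesets were higher and 4 lower.

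Of the 14 settings, 5 change only the error or the set of probesets tested and so leave every member's difference as it is. In the other 9, of which 1, the mean of a gene's probesets, moves Unc13a and Unc13c alone, 27 of the 38 members kept their direction, Syt2, Unc13c, Napb and Unc13a among them, and 11 with differences of at most 0.055 in size turned sign in some. With centring these were Nsf (0.0093), Pclo (0.0068), Rab3a (0.0071), Sv2a (0.00060) and Syngr3 (0.0053), and with array weights Nsf (0.0016) and Syngr1 (-0.0013). With 1 array left out the differences ran from -0.10 to 0.0086 for Cplx2, -0.027 to 0.0035 for Nrxn3, -0.018 to 0.0056 for Nsf, -0.018 to 0.011 for Pclo, -0.013 to 0.0029 for Rab3a, -0.027 to 0.0047 for Sv2a, -0.0012 to 0.033 for Sv2b, -0.014 to 0.041 for Syn1, -0.0086 to 0.020 for Syngr1, -0.024 to 0.015 for Syngr3 and -0.012 to 0.054 for Syt4. The cause of these shifts was not tested. The table holds no detection p, and no member lay near the filter.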
